A study of Mus musculus with 12 samples.

Results

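The organic ion uptake transporters of the Slc22 and Slco gene families were followed in the liver of mice on a high-fat diet (HFD). Members were chosen by symbol: every line of the gene table whose symbol starts with Slc22a or Slco and a number was taken, which gave 41 genes (26 Slc22 and 15 Slco) of 23849 symbols. The rule reads symbols and no expression value, though it was set with earlier results of these data known. Of these, 14 genes (9 Slc22 and 5 Slco) had a mean of at least 1 FPKM (fragments scaled to transcript length and mapped reads) over the 12 livers and were tested, among 9806 symbols that passed the same minimum. The remaining 27 members were too low for a test and are described by level only.

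The livers came from male mice of C57BL/6J background, 8 weeks old per the design text, all of them fed HFD (60% of calories from fat) for 6 weeks. In the last 2 weeks they received by daily gavage at ZT11 either Libramed, a fiber-based product also called Policaptil Gel Retard, at 20 mg/ml in drinking water, or drinking water alone (vehicle). Zeitgeber time (ZT) counts hours from lights on, so ZT0 is the end and ZT12 the start of the active phase of a mouse, and ZT12 is 1 h after the daily time of gavage. The 4 groups were Vehicle ZT0, Vehicle ZT12, Libramed ZT0 and Libramed ZT12, with 3 mice each, and no mouse on normal diet was part of these RNA samples. Each liver is bulk tissue, without separation of cell types. The defining hepatocyte genes Ttr, Apoa1, Cps1, Serpina1c and Cyp2e1 were all expressed. Albumin, however, was listed at 0 in all 12 livers, so a 0 in this table can be a failed estimate. Library depth is known only in relative terms, the deepest library having 1.88 times the depth of the shallowest, and the precision of each value rests on the spread of 3 mice.

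Hepatocytes clear bile acids, bilirubin, hormones, drugs and dietary metabolites from portal blood, and the first step is uptake across the sinusoidal membrane. Members of the Slc22 family carry organic cations, zwitterions such as carnitine, and organic anions, and they are grouped into branches by these substrates. The Slco genes encode the organic anion transporting polypeptides (OATPs), which take up larger amphipathic anions, bile acids, conjugated steroids, thyroid hormones and prostaglandins. Several members are known kidney or testis genes with little expression in liver.

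By mean FPKM over the 12 livers, 13 tested members took the order Slco1b2 (237), Slc22a18 (111), Slc22a7 (85.0), Slco1a1 (67.1), Slco2b1 (44.2), Slc22a30 (40.3), Slc22a23 (14.3), Slco2a1 (11.8), Slc22a5 (7.12), Slco1a4 (6.85), Slc22a28 (3.11), Slc22a4 (2.00) and Slc22a3 (1.78). Of the 12 neighbouring pairs in this order, 10 had ranges that overlapped over the 12 livers. In 9 of these the order also differed between mice, while Slco1a1 was above Slco2b1 in 12 of 12. The ranges were apart for Slco1b2 above Slc22a18 and for Slc22a30 above Slc22a23. Among these 13 members, variation between livers was smallest for Slc22a23, with a coefficient of variation of 7.84% over the 12 livers, and largest for Slco1a4, with 40.7%.

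**Figure D1:**
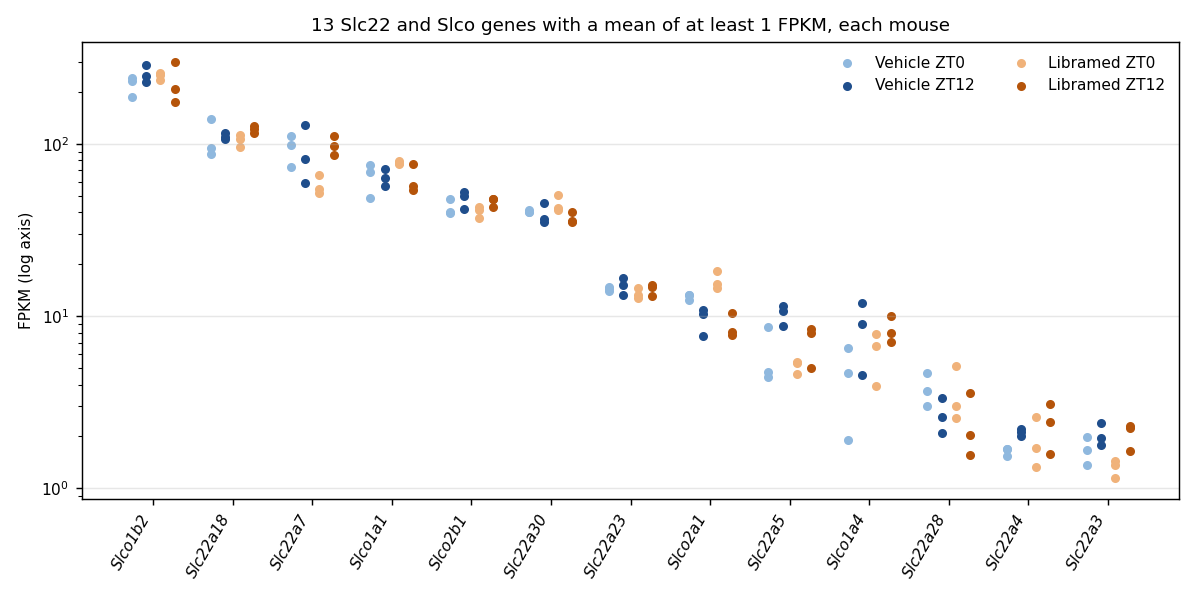
FPKM (log axis) of 13 tested Slc22 and Slco genes, ordered by mean; each point is 1 mouse and colors mark the 4 groups. Slco1b2 lies above the other genes plotted, and Slc22a4 and Slc22a3 lie lowest, at means of 2.00 and 1.78 FPKM.

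Organic cation transporters come first. Slc22a3, a transporter of monoamines (chr17:12418960-12507704 in mm10), was low. It stood at 1.37, 1.98 and 1.68 FPKM in Vehicle ZT0 and at 1.78, 2.41 and 1.96 in Vehicle ZT12. In treated mice it stood at 1.37, 1.45 and 1.15 FPKM at ZT0 and at 1.65, 2.25 and 2.31 at ZT12. All 3 Libramed mice at ZT12 were above all 3 at ZT0, while the vehicle groups overlapped. Slc22a3 rose from ZT0 to ZT12 over both treatments, by 0.30 on the scale of log2(FPKM + 1) (SE 0.09, limma adjusted p = 0.0252, exact permutation p = 0.015). Within Libramed mice the difference was 0.40 (SE 0.12, limma p = 0.00995, adjusted p = 0.0650, exact permutation p = 0.1, the smallest that 3 mice against 3 allow). Within vehicle mice it was 0.19 (SE 0.12, exact permutation p = 0.3). Because 1 FPKM was added before the logarithm, these values understate the change of a gene this low: with 0.1 FPKM added, the Libramed difference was 0.61. The adjusted p over both treatments was above 0.05, at most 0.0589, without any 1 of Vehicle ZT0 replicate 1, Vehicle ZT12 replicate 2, Libramed ZT0 replicate 3 and Libramed ZT12 replicates 2 and 3. Exons of Slc22a3 overlap those of Plg, an abundant hepatocyte gene on the opposite strand. Whether strand was used in counting is not settled by the sources used here, so reads of these genes may not be separated. The same limit holds for Slco2b1, whose exons overlap Gm15635 and Gm34280, and for Slco2a1, whose exons overlap n-R5s89, all on the opposite strand.

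Slc22a2, a cation transporter of kidney tubules, had a mean under 0.1 FPKM. It was above 0 only in the 3 Libramed ZT0 mice, at levels too low to compare.

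Slc22a5 and Slc22a4 are the carnitine and zwitterion transporters. Slc22a5 brings carnitine, which carries fatty acids into mitochondria, into cells, and Slc22a4 is best known for ergothioneine uptake. They lie next to each other, with Slc22a21 between them, on chromosome 11 (chr11:53864542-54028090, mm10). Slc22a5 measured 4.76, 8.60 and 4.45 FPKM in Vehicle ZT0 and 10.7, 8.72 and 11.5 in Vehicle ZT12. In Libramed mice the values were 5.36, 5.45 and 4.58 FPKM at ZT0 and 5.03, 7.93 and 8.37 at ZT12. All Vehicle ZT12 mice thus lay above all mice of the other 3 groups, the closest being the second Vehicle ZT0 mouse.

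Over both treatments, Slc22a5 rose from ZT0 to ZT12 by 0.56 (log2, SE 0.16, limma adjusted p = 0.0175, exact permutation p = 0.025), and mean FPKM was 1.57-fold higher. The rise in vehicle mice was 0.75 (SE 0.23, limma p = 0.0133, adjusted p = 0.0857, exact permutation p = 0.1), without overlap. In Libramed mice the difference of 0.38 did not pass p under 0.05 (SE 0.17, limma p = 0.0645, exact permutation p = 0.3). These time differences were not shown to differ from each other: the interaction of time and treatment was -0.37 (SE 0.31, limma p = 0.257, permutation p = 0.405). For the interaction, treatment labels were exchanged within each time, so this permutation p is exact only for no treatment difference at either time. At ZT12, Slc22a5 was lower in Libramed than in vehicle mice, by 0.50 on the log2 scale (SE 0.19, limma p = 0.0319, adjusted p = 0.729, exact permutation p = 0.1), and the groups did not overlap. That difference lost p under 0.05 without Vehicle ZT12 replicate 1 (-0.47), Vehicle ZT12 replicate 3 (-0.42) or Libramed ZT12 replicate 1 (-0.30), and without a minimum FPKM. Of the windows of 100 bases in Slc22a5, 13.7% also occur in Slc22a21, which was measured at 0.0460 to 0.242 FPKM, so a part of the sequence cannot be assigned to 1 gene. The summed FPKM of adipocyte markers was 11.5 to 42.8 in Vehicle ZT12 and 2.74 to 11.2 in Libramed ZT12. This sum came almost wholly from Cfd, while Retn and Lep were listed at 0 in all livers and Adipoq and Plin1 reached at most 0.0492 and 0.0381 FPKM. By mouse, Vehicle ZT12 replicates 1, 2 and 3 had sums of 11.5, 42.8 and 26.1 FPKM and Slc22a5 at 10.7, 8.72 and 11.5. At ZT0 the sum was 2.85 to 7.97 FPKM in vehicle and 0.351 to 4.99 in Libramed mice. The part of Cfd in the result for Slc22a5 was not tested.

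Slc22a4 was at 1.69, 1.54 and 1.70 FPKM in Vehicle ZT0, 2.01, 2.12 and 2.21 in Vehicle ZT12, 2.61, 1.33 and 1.71 in Libramed ZT0, and 1.59, 2.43 and 3.09 in Libramed ZT12. The vehicle groups were tight and did not overlap, whereas the Libramed groups spread widely and did. The difference in vehicle mice was 0.24 (log2, SE 0.08, limma p = 0.0234, adjusted p = 0.116, exact permutation p = 0.1). It lost p under 0.05 without Vehicle ZT0 replicate 2 (0.21), Vehicle ZT12 replicate 2 (0.23) or Vehicle ZT12 replicate 3 (0.21), in a fit of all 12 livers and in a version of Cyber-T, a test that draws on genes of similar level for the spread. In Libramed mice it was 0.22 with an SE of 0.21 (exact permutation p = 0.5).

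**Figure D2:**
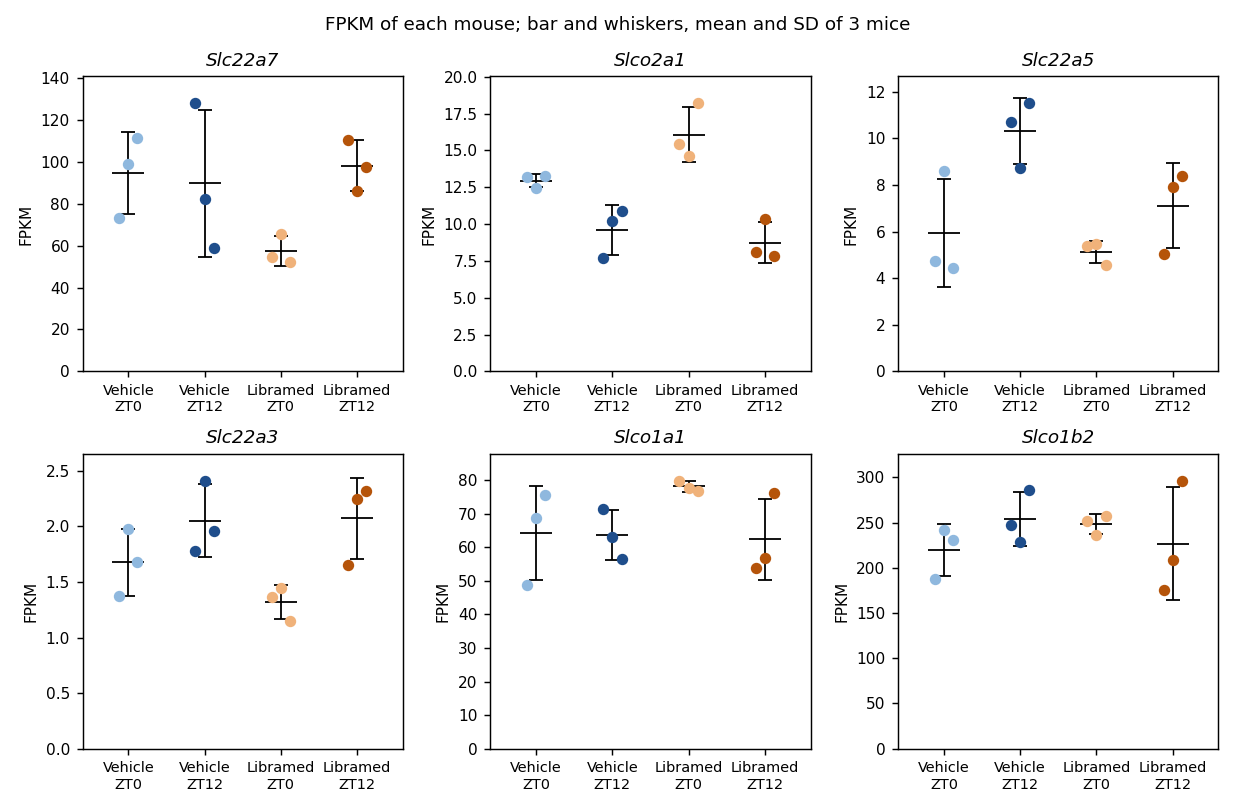
FPKM of 6 members in each mouse (points), with group mean and SD (bar and whiskers, 3 mice), on linear axes from 0. Slc22a7 is lowest in Libramed ZT0, Slco2a1 is lower at ZT12 than at ZT0 in both treatments, Slc22a5 is highest in Vehicle ZT12, Slco1a1 is lower at ZT12 than at ZT0 in Libramed mice, and the groups of Slco1b2 overlap.

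Among the organic anion transporters of the Slc22 family, Slc22a7 passed limma p under 0.05 between treatments at ZT0, though not after adjustment. Slc22a7 is the main organic anion transporter of this family in hepatocytes and moves cyclic nucleotides, glutamate and many drugs. It had 73.4, 99.0 and 111 FPKM in Vehicle ZT0 and 128, 82.1 and 59.1 in Vehicle ZT12. The Libramed mice had 54.4, 65.6 and 52.0 FPKM at ZT0 and 111, 86.3 and 97.5 at ZT12. All 3 Libramed ZT0 mice were below all Vehicle ZT0 and all Libramed ZT12 mice, and the vehicle groups overlapped broadly.

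In Libramed mice, Slc22a7 rose from ZT0 to ZT12 by 0.77 (log2, SE 0.13, limma adjusted p = 0.0120, exact permutation p = 0.1), or 1.71-fold in mean FPKM. With the spread estimated over all 12 livers the adjusted p was 0.0540. In vehicle mice the time difference was -0.13 (SE 0.29, limma p = 0.675, exact permutation p = 0.8). At ZT0, Slc22a7 was lower in Libramed than in vehicle mice, by 0.70 on the log2 scale (SE 0.17, limma p = 0.00447, exact permutation p = 0.1), or 1.65-fold in mean FPKM. This did not pass the adjustment over all genes (adjusted p = 0.391). At ZT12 the treatments differed by 0.19 (SE 0.26, exact permutation p = 0.6).

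The interaction, that is the time difference in Libramed minus that in vehicle mice, was 0.89 for Slc22a7 (SE 0.34, limma p = 0.0236, adjusted p = 0.676, permutation p = 0.06 with treatment exchanged within each time). It missed p under 0.05 without Vehicle ZT0 replicate 3 (0.76), Vehicle ZT12 replicate 3 (0.63), Libramed ZT0 replicate 3 (0.83) or Libramed ZT12 replicate 1 (0.80). The summed FPKM of the 5 hepatocyte markers above 0 was 34928 to 38590 in Vehicle ZT0 and 39763 to 49391 in Libramed ZT0. It was 35176 to 39894 in Vehicle ZT12 and 39296 to 45685 in Libramed ZT12, where Slc22a7 had its highest mean. Alb, listed at 0, added nothing to this sum, and Apoa1 made up the largest part. Apoa1 was at 21894.5 to 23583.7 FPKM in Vehicle ZT0 and 25809.1 to 32457.8 in Libramed ZT0. Of the 5 hepatocyte markers tested at ZT0, 3 had a higher and 2 a lower mean log2 value in Libramed mice. Of these 1, Apoa1, passed p under 0.05 (higher, 3.42% of all genes). Markers of other cells also differed at ZT0, some lower and some higher in Libramed mice. Of 8 listed Kupffer cell markers 4 were tested, and 3 were lower in Libramed mice at p under 0.05 (5.81% of all genes). The median log2 fold change over the 4 was -0.47. The summed FPKM of the 7 Kupffer cell markers in the table was 20.4 to 25.2 in Vehicle ZT0, 10.8 to 28.2 in Vehicle ZT12, 11.5 to 18.8 in Libramed ZT0 and 14.0 to 21.2 in Libramed ZT12. Of 5 adipocyte markers 1 was tested, Cfd, and it was lower at ZT0 at p under 0.05 (log2 fold change -1.49, background 5.81%). The adipocyte sum was 2.85 to 7.97 FPKM in Vehicle ZT0, 11.5 to 42.8 in Vehicle ZT12, 0.351 to 4.99 in Libramed ZT0 and 2.74 to 11.2 in Libramed ZT12, and Retn and Lep were at 0 in all livers. At ZT0, 6 of 7 tested endothelial markers were higher in Libramed mice, 2 of them at p under 0.05 (3.42% of all genes). All 6 tested stellate cell markers were higher, 1 at p under 0.05. Of 4 tested cholangiocyte markers 3 were lower, 1 of them at p under 0.05 (5.81% of all genes). The 2 tested blood markers went 1 each way, neither at p under 0.05. None of these markers had an adjusted p under 0.05 between treatments at ZT0 in limma. The part of the markers in the result was not tested.

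Slc22a28 and Slc22a30 belong to a block of organic anion transporter genes on chromosome 19 that is expanded in rodents. The block holds 8 members, Slc22a19, Slc22a26, Slc22a27, Slc22a28, Slc22a29, Slc22a30, Slc22a8 and Slc22a6 (chr19:7673061-8628299, mm10), of which Slc22a28 and Slc22a30 passed the minimum. Their sequences are so alike that 37.0% of the windows of 100 bases of Slc22a28 and 24.3% of those of Slc22a30 also occur in neighbours of the block, so their values are uncertain. The likeness extends to their promoters, which are shown because both genes had lower means at ZT12 in each treatment. For Slc22a30 the difference over both treatments did not pass p under 0.05. Each line gives the 250 bases before the RefSeq start on GRCm38.p6, on the minus strand (chr19:8131983-8132232 for Slc22a28 and chr19:8405106-8405355 for Slc22a30), and capitals mark the match to the D-box core TTATGNA, searched on both strands. These windows are 93.0% identical, with 238 identical bases in 256 aligned columns.
Slc22a28: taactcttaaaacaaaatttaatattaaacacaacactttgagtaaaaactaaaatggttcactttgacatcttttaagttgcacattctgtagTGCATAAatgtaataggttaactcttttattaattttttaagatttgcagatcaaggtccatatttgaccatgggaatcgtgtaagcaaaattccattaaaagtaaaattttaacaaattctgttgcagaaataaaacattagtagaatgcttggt
Slc22a30: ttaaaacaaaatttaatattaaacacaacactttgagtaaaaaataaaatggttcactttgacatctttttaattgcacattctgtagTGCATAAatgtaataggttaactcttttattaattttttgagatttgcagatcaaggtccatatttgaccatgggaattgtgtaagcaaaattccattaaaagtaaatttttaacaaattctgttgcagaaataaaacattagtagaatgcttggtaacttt
The match starts 156 bases before the start of Slc22a28 and 162 bases before that of Slc22a30. These letters occur in 8.69% of 32851 promoter windows of the same length and in 4 of 40 windows of the members. The match is a description of the sequence only. Among tested members, the window of Slc22a4 holds the E-box CACGTG and that of Slco1a1 the ROR element TAGGTCA. These occur in 2 and 1 of the 40 member windows, beside 6.02% and 2.23% of all windows.

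Slc22a28 measured 2.99, 3.65 and 4.69 FPKM in Vehicle ZT0, 3.36, 2.61 and 2.09 in Vehicle ZT12, 5.12, 2.58 and 3.01 in Libramed ZT0, and 1.56, 2.04 and 3.60 in Libramed ZT12. The groups overlapped in each treatment, with the lower values at ZT12. Over both treatments Slc22a28 fell by 0.40 on the log2 scale (SE 0.17, limma p = 0.0334, adjusted p = 0.0903, exact permutation p = 0.06). It lost p under 0.05 without any 1 of Vehicle ZT0 replicate 3, Vehicle ZT12 replicates 2 and 3, Libramed ZT0 replicate 1 and Libramed ZT12 replicates 1 and 2, with differences of -0.40 to -0.30.

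Slc22a30 was more abundant, with 40.1, 41.1 and 40.1 FPKM in Vehicle ZT0, 45.1, 35.2 and 36.5 in Vehicle ZT12, 50.8, 42.4 and 41.5 in Libramed ZT0, and 35.7, 35.1 and 40.3 in Libramed ZT12. The Libramed groups did not overlap and the vehicle groups did. In Libramed mice Slc22a30 fell by 0.27 (log2, SE 0.11, limma p = 0.0377, adjusted p = 0.144, exact permutation p = 0.1). The call was lost without Libramed ZT0 replicate 1 (-0.18), Libramed ZT12 replicate 1 (-0.24) or Libramed ZT12 replicate 2 (-0.23), and in the Cyber-T version.

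Slc22a18, a transporter-like gene of an imprinted region on chromosome 7, stood at 139, 87.5 and 94.6 FPKM in Vehicle ZT0, 107, 115 and 110 in Vehicle ZT12, 107, 95.4 and 112 in Libramed ZT0, and 116, 122 and 126 in Libramed ZT12. The Libramed ZT12 mice lay above all Libramed ZT0 and all Vehicle ZT12 mice, though by a narrow margin. The time difference in Libramed mice was 0.21 (log2, SE 0.09, limma p = 0.0480, adjusted p = 0.166, exact permutation p = 0.1), and the treatment difference at ZT12 was 0.13 (SE 0.07, limma p = 0.0886, exact permutation p = 0.1). The former was lost on leaving out any 1 library of the comparison other than Libramed ZT0 replicate 3, with differences of 0.15 to 0.24, and also without the trend, after quantile normalization, in a fit of all 12 livers and in the Cyber-T version. Slc22a23, for which no substrate is given here, varied little. Its group means were 14.4 ± 0.358 FPKM in Vehicle ZT0, 15.1 ± 1.69 in Vehicle ZT12, 13.5 ± 0.989 in Libramed ZT0 and 14.3 ± 1.07 in Libramed ZT12 (SD, n = 3), and no comparison passed p under 0.05.

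The Slco1 genes lie in a block of 6 members on chromosome 6 (chr6:141524368-142322981, mm10). Slco1b2, the rodent counterpart of the human hepatic OATP1B transporters and an uptake route for bile acids and conjugated bilirubin, was abundant. It showed 187, 241 and 230 FPKM in Vehicle ZT0, 248, 228 and 287 in Vehicle ZT12, 252, 236 and 258 in Libramed ZT0, and 176, 208 and 296 in Libramed ZT12. The Libramed ZT12 mice covered the whole range of the other groups. No comparison passed p under 0.05, and the log2 time difference over both treatments was 0.02 (SE 0.13, exact permutation p = 0.855).

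Slco1a1, a carrier of bile acids and steroid sulfates, had 48.7, 68.6 and 75.6 FPKM in Vehicle ZT0, 71.6, 63.1 and 56.5 in Vehicle ZT12, 79.9, 77.8 and 76.8 in Libramed ZT0, and 53.9, 56.9 and 76.3 in Libramed ZT12. The Libramed ZT0 mice were the highest and the tightest group, above all Vehicle ZT0 and all Libramed ZT12 mice, although the closest values differed by less than 2 FPKM. In Libramed mice Slco1a1 fell by 0.34 from ZT0 to ZT12 (log2, SE 0.13, limma p = 0.0383, adjusted p = 0.145, exact permutation p = 0.1). This call was lost without any 1 library of the comparison other than Libramed ZT12 replicate 3, with differences of -0.35 to -0.24, without a minimum FPKM and in a fit of all 12 livers. The treatment difference at ZT0 was 0.30 and did not pass p under 0.05 (SE 0.16, limma p = 0.104, exact permutation p = 0.1).

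Slco1a4, an OATP of broad substrate range, was the most variable of the members named in the order of levels. It ran at 6.56, 1.91 and 4.67 FPKM in Vehicle ZT0, 4.53, 9.0 and 11.9 in Vehicle ZT12, 3.94, 6.67 and 7.88 in Libramed ZT0, and 8.02, 9.96 and 7.11 in Libramed ZT12. Both pairs of time groups overlapped, with most ZT12 mice on the higher side. The time difference over both treatments was 0.63 (log2, SE 0.26, limma p = 0.0317, adjusted p = 0.0866, exact permutation p = 0.065). It lost p under 0.05 without Vehicle ZT0 replicate 2 (0.43), and without any 1 of Vehicle ZT12 replicates 2 and 3, Libramed ZT0 replicate 1 and Libramed ZT12 replicate 2 (0.49 to 0.60).

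Slco2b1, an OATP of hepatocytes that accepts steroid sulfates and many oral drugs, had 47.5, 39.5 and 40.4 FPKM in Vehicle ZT0, 42.0, 52.3 and 49.5 in Vehicle ZT12, 36.9, 41.4 and 42.8 in Libramed ZT0, and 47.8, 42.8 and 47.7 in Libramed ZT12. The vehicle groups overlapped broadly, from 42.0 to 47.5 FPKM, and the Libramed groups at their edges, near 42.8. Its log2 time difference over both treatments was 0.18 (SE 0.07, limma p = 0.0280, adjusted p = 0.0792, exact permutation p = 0.035), with 0.17 in vehicle and 0.19 in Libramed mice. The call was lost without any 1 of Vehicle ZT0 replicates 2 and 3, Vehicle ZT12 replicates 2 and 3, Libramed ZT0 replicate 1 and Libramed ZT12 replicates 1 and 3, with differences of 0.15 to 0.17, and after quantile normalization, at 0.13.

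Slco2a1, the prostaglandin transporter, had the smallest p of the tested members for the time difference over both treatments. The 250 bases before its RefSeq start (chr9:103008237-103008486, GRCm38.p6, plus strand) are given because this member carries that result. They have no match to the D-box core, the E-box CACGTG, the ROR element TAGGTCA, the HNF1 half-site GTTAAT or the nuclear receptor half-site AGGTCA, searched on both strands. Of all promoter windows of this length, the E-box occurs in 6.02%, the ROR element in 2.23%, the HNF1 half-site in 6.43% and the nuclear receptor half-site, which is part of the ROR element, in 14.0%.
Slco2a1: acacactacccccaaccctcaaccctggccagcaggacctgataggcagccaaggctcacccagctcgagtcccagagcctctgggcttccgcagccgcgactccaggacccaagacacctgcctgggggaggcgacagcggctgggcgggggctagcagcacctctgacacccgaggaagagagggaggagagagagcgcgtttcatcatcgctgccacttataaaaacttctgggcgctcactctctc

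Slco2a1 measured 13.2, 12.4 and 13.2 FPKM in Vehicle ZT0 and 7.68, 10.2 and 10.9 in Vehicle ZT12. In Libramed mice it measured 15.4, 14.6 and 18.2 FPKM at ZT0 and 8.08, 10.4 and 7.82 at ZT12. Every mouse at ZT12 was below every mouse at ZT0, in both treatments. Over both treatments Slco2a1 fell by 0.61 (log2, SE 0.11, limma adjusted p = 0.00128, exact permutation p = 0.005, the smallest that this test can give). The fall was 0.81 in Libramed mice (SE 0.13, limma adjusted p = 0.0108, exact permutation p = 0.1), where the mean at ZT0 was 1.84-fold that at ZT12. In vehicle mice Slco2a1 fell by 0.41 (SE 0.13, limma p = 0.0153, adjusted p = 0.0925, exact permutation p = 0.1), and by 0.27 without Vehicle ZT12 replicate 1. The interaction was -0.40 and did not pass p under 0.05 (SE 0.19, limma p = 0.0559, permutation p = 0.07 with treatment exchanged within each time).

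At ZT0, Slco2a1 was higher in Libramed than in vehicle mice, by 0.29 on the log2 scale (SE 0.10, limma p = 0.0255, adjusted p = 0.514, exact permutation p = 0.1), and the groups did not overlap. The call was lost on leaving out Vehicle ZT0 replicate 2 (0.26), Vehicle ZT0 replicate 3 (0.30) or Libramed ZT0 replicate 3 (0.20), and in a fit of all 12 livers. At ZT12 the difference was -0.12 (SE 0.15, exact permutation p = 0.7).

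Slco2a1 is known from endothelial cells, and endothelial markers moved with it. The summed FPKM of 8 markers (Pecam1, Stab2, Lyve1, Clec4g, Kdr, Cdh5, Eng and Oit3) was 38.9 to 49.0 in Vehicle ZT0, 21.6 to 32.0 in Vehicle ZT12, 46.5 to 57.0 in Libramed ZT0 and 29.8 to 33.2 in Libramed ZT12. All 7 endothelial markers that were tested were lower at ZT12 over both treatments at adjusted p under 0.05 (13.8% of all genes). Their median log2 fold change was -0.46. At ZT0, 2 of the 7, Kdr and Cdh5, were higher in Libramed mice at p under 0.05 (3.42% of all genes). Stellate cell markers were also lower at ZT12, 5 of 6 tested (Col3a1, Des, Dcn, Pdgfrb and Reln) at adjusted p under 0.05 (13.8% of all genes). These markers, like Apoa1, are named because their counts are small, after their values were seen. In bulk liver, fewer cells of a type and less RNA per cell cannot be told apart, and the part of these markers in the result for Slco2a1 was not tested.

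**Figure D3:**
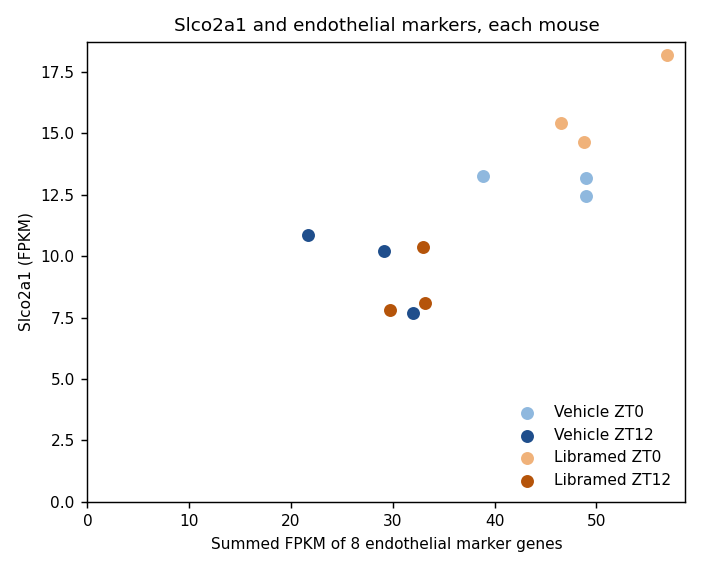
Slco2a1 (FPKM) against the summed FPKM of 8 endothelial marker genes in each of the 12 mice, both axes from 0. The ZT0 mice lie at 38.9 or above for the markers and 12.4 or above for Slco2a1, and the ZT12 mice lie below both values.

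Counted over the 14 tested members, time differences were more frequent than treatment differences, as they were over all genes. In vehicle mice, 3 members passed p under 0.05 between the times, with 27.4% of all 9806 genes doing so: Slc22a5 and Slc22a4 were higher at ZT12 (2 members, background 14.4%) and Slco2a1 was lower (1 member, background 13.0%). These 3 were also the members without overlap, against 33.2% of all genes. None had an adjusted p under 0.05 in limma (background 10.4%), while the Cyber-T version gave 3, namely Slc22a5, Slco1a4 and Slco2a1. Shares over all genes are given for the main limma fits only, not for Cyber-T or for fits without a library. Leaving out Vehicle ZT0 replicate 1 raised the count of 3 to 6, leaving out Vehicle ZT12 replicate 1 raised it to 5, and leaving out Vehicle ZT0 replicate 2 gave 1 member with an adjusted p under 0.05.

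In Libramed mice, 6 members passed p under 0.05 between the times (background 29.2%). Slc22a7, Slc22a3 and Slc22a18 were higher at ZT12 (background 15.7%) and Slco2a1, Slc22a30 and Slco1a1 lower (background 13.4%). The same 6 had groups without overlap, against 34.9% of all genes. Slc22a7 and Slco2a1 had an adjusted p under 0.05 (background 12.4%). The count of 6 fell to 3 without Libramed ZT0 replicate 1 or Libramed ZT12 replicate 2, and 4 members had an adjusted p under 0.05 without Libramed ZT12 replicate 1. Over both treatments, 6 members passed p under 0.05 (background 41.0%), 4 higher (21.7%) and 2 lower (19.3%), and 3 had an adjusted p under 0.05 (29.7%): Slco2a1, Slc22a5 and Slc22a3. The count of 6 was 3 without Vehicle ZT12 replicate 2, and that of 3 was 6 without Vehicle ZT12 replicate 1. Slco2a1 was the member whose ZT0 and ZT12 mice did not overlap in either treatment, against 17.6% of all genes. The median log2 fold change of the members over both treatments was 0.11, beside 0.01 over all genes.

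**Figure D4:**
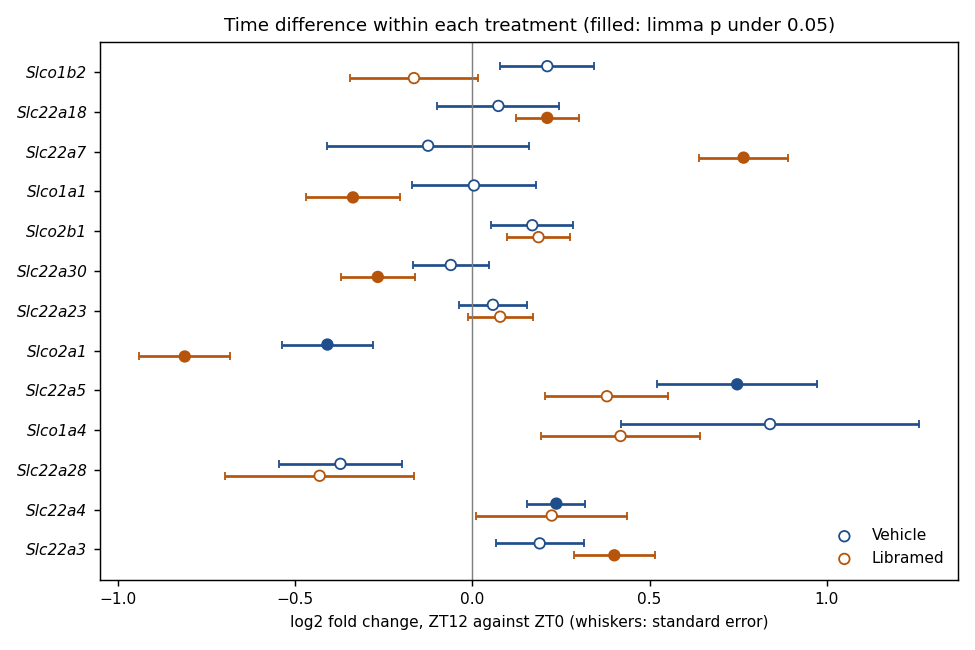
Log2 fold change of ZT12 against ZT0 for 13 tested members (ordered by mean FPKM) in vehicle and in Libramed mice; whiskers are the standard error and filled points have a limma p under 0.05. Slc22a7 stands at -0.13 in vehicle and 0.77 in Libramed mice, and Slco2a1 lies below 0 in both.

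Between treatments, 2 members passed p under 0.05 at ZT0, Slc22a7 (lower, background 5.81%) and Slco2a1 (higher, background 3.42%), beside 9.23% of all genes in either direction, and 4 had groups without overlap, beside 15.1%. The count was 1 without Libramed ZT0 replicate 3. At ZT12 it was 1 member, Slc22a5 (lower, background 3.67%), beside 6.74% in either direction, and 2 members, Slc22a5 and Slc22a18, without overlap, beside 13.1%. The count at ZT12 was 0 without Vehicle ZT12 replicate 3 or Libramed ZT12 replicate 1, and 2 without Libramed ZT12 replicate 3. Over both times none passed p under 0.05 (background 10.1%) or adjusted p under 0.05 (0.0204%) in limma, and none was without overlap (1.44%). That count was 2 on leaving out Vehicle ZT0 replicate 1, and 1 on leaving out Vehicle ZT0 replicate 3 or Vehicle ZT12 replicate 3. For the interaction 1 member passed, Slc22a7 (positive, background 3.82%), beside 6.63% in either direction. That count ranged from 0 to 3 with each library left out. No member had an adjusted p under 0.05 in limma in any of these, nor in the Cyber-T version at ZT0 or ZT12. Time and treatment comparisons share livers and are not independent of each other. Over the 7 comparisons, 11 of the 14 members passed p under 0.05 at least in 1 (background 55.0%), while Slco1b2 and Slc22a23 passed in none.

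Several members under 1 FPKM are known mainly from kidney, brain or testis. Slco3a1, a prostaglandin and thyroid hormone carrier, was the highest of them at 0.619 to 1.33 FPKM. Slc22a15 ranged from 0.466 to 0.902 FPKM, Slc22a17, the receptor for lipocalin 2, from 0.293 to 0.755, and Slc22a27 from 0.0532 to 1.54. Slc22a29 ranged from 0 to 0.818 FPKM, Slc22a26 from 0 to 0.871, the pseudogene Slc22a13b-ps from 0.0435 to 0.677 and Slc22a21 from 0.0460 to 0.242. Of these 8, Slc22a13b-ps shares 30.5% of its windows with Slc22a13 and Slc22a21 12.1% with Slc22a5. Slc22a29 shares 8.4% with genes that include Slc22a28 and Slc22a30, Slc22a27 shares 7.6% with genes that include Slc22a28, and Slc22a26 shares 0.617%. A part of their sequence therefore cannot be assigned to 1 gene. A further 12 members had means above 0 and under 0.1 FPKM: Slco4a1, Slco1c1, Slc22a14, Slc22a2, Slc22a22, Slc22a20, Slc22a6, Slco1a6, Slc22a19, Slco4c1, Slco1a5 and Slc22a8. Among them are Slc22a6, Slc22a8 and Slc22a2, the basolateral uptake transporters of kidney tubules, and kidney tubule markers were near 0 as well, with sums of 0.0336 to 0.332 FPKM per liver. The last 7, Slc22a16, Slco6b1, Slco6c1, Slco6d1, Slco5a1, Slc22a12 and Slc22a13, were listed at 0 in all livers.

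Other genes of hepatic transport were read as lists. Of 16 partners that act beside the uptake transporters (bile acid and cation carriers, export pumps and membrane scaffolds), 12 were tested. Over both treatments 9 passed p under 0.05 between the times, beside 41.0% of all genes. Of them 8 had an adjusted p under 0.05 (6 higher and 2 lower at ZT12, with 15.9% and 13.8% of all genes). The median log2 fold change was 0.27. Slc9a3r1, a scaffold of apical membrane proteins, rose by 0.71 (SE 0.06), and Slc47a1, which exports organic cations into bile, rose by 0.56 (SE 0.06). Abcb11, the bile salt export pump, fell by 0.87 (SE 0.09), and Atp8b1, a lipid flippase of the same canalicular membrane, fell by 0.43 (SE 0.06). All 4 had adjusted p under 0.05 in limma. In FPKM, Abcb11 averaged 92.5 ± 7.94 in Vehicle ZT0, 54.8 ± 2.44 in Vehicle ZT12, 126 ± 24.1 in Libramed ZT0 and 62.3 ± 6.16 in Libramed ZT12 (SD, n = 3). Between treatments over both times, Abcb11 was 0.31 higher in Libramed mice (log2, SE 0.09) and Abcc6 was 0.18 higher (SE 0.06), both at limma p under 0.05 and each with an adjusted p of 0.362. These were 2 of the 12 tested partners, beside 10.1% of all genes in either direction.

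Of 15 regulators of transporter genes, 14 were tested, and 8 had an adjusted p under 0.05 between the times (6 higher and 2 lower, beside 15.9% and 13.8% of all genes), with a median log2 fold change of 0.13. The xenobiotic receptor genes Nr1i3 and Nr1i2 rose by 1.01 (SE 0.12) and 0.90 (SE 0.11), and Nr1h4, the bile acid receptor, rose by 0.53 (SE 0.07). Stat5b, which carries growth hormone signals, fell by 0.34 (SE 0.07). Nr1i2 was also 0.37 higher in Libramed mice over both times (log2, SE 0.11, limma adjusted p = 0.355), with 21.4 ± 2.56, 44.0 ± 5.55, 30.4 ± 6.35 and 53.3 ± 7.18 FPKM in Vehicle ZT0, Vehicle ZT12, Libramed ZT0 and Libramed ZT12 (mean ± SD, n = 3). It was 1 of 14 tested regulators at limma p under 0.05 in that comparison, a share below the 10.1% of all genes.

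Genes of carnitine synthesis and use, which act on the substrate of Slc22a5, were tested for 7 of 9. At adjusted p under 0.05, 4 were higher (background 15.9%) and none lower (13.8%) at ZT12 over both treatments in limma, and at p under 0.05 the counts were the same (21.7% and 19.3%). The median log2 fold change was 0.37. Bbox1, the last enzyme of carnitine synthesis, rose by 0.59 (SE 0.07), and Cpt1a, which links fatty acids to carnitine, rose by 0.66 (SE 0.09). Slc25a20, the mitochondrial acylcarnitine carrier, rose by 0.59 (SE 0.10), and Shmt1, an enzyme of serine and folate metabolism placed in the synthesis route, rose by 0.37 (SE 0.09). Slc22a5 rose by 0.56 in the same comparison. At ZT12, where Slc22a5 was lower in Libramed than in vehicle mice, 2 of the 7 genes were lower at p under 0.05 (background 3.67%), Bbox1 (-0.21, SE 0.07) and Cpt1a (-0.26, SE 0.09), and none at adjusted p under 0.05 in limma.

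**Figure D5:**
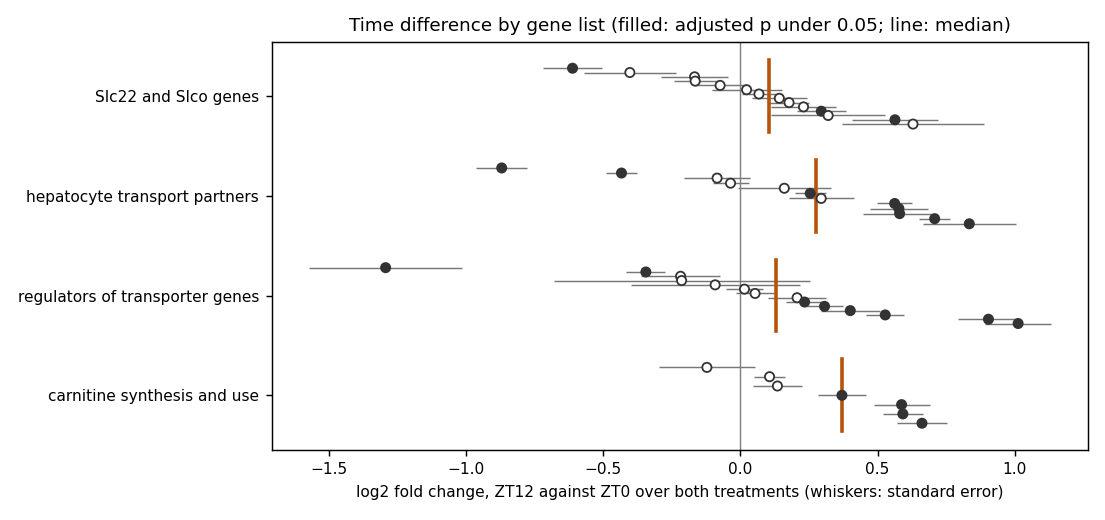
Log2 fold change of ZT12 against ZT0 over both treatments for the Slc22 and Slco genes and the 3 lists; points are genes, whiskers the standard error, filled points have an adjusted p under 0.05 and vertical lines are medians. The medians are 0.11 for the transporters, 0.27 for their partners, 0.13 for the regulators and 0.37 for the carnitine genes.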

How the data were processed

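Liver RNA-seq of 12 mice was analysed from 1 deposited table of FPKM values per gene. The authors' methods describe ELAND v2e alignment to mm10 with UCSC splice junctions, unique reads and RPKM, while the submitters' processing notes name TopHat and Cuffnorm with mm10 and GRCm38; likewise stranded libraries are described in one source and TruSeq RNA v2 in the other. Of 24138 lines, 289 repeated a symbol, for which only the most abundant line was used. Groups came from the labels. Counts were not used, and absolute depth is unknown; relative depth was read from genes with a mean under 0.1 FPKM.

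Values were tested as log2(FPKM + 1) with limma 3.58.1 in R 4.3.3 (eBayes with trend, two-sided, Benjamini-Hochberg adjustment) over 9806 symbols with a mean of at least 1 FPKM, fitting the 6 livers compared, or all 12 with the other factor as a term. Fold changes on this scale understate those of low genes. Exact permutation tests used all 20 arrangements, or 400 within strata. For the interaction, treatment labels were exchanged within each time. That permutation p therefore assumes no treatment difference at either time and is not an exact test of the interaction alone. A version of Cyber-T used windows of 101 genes and a prior weight of 10. The labels speak of biological replicates. All mouse values are given for members with p under 0.05 in any comparison and for the 6 most abundant members; listed genes are named by smallest p, at most 4 per list. 1 tested member is not reported here, though it stays in the counts and medians. The members and lists were chosen with earlier results of these data known. Gene positions and shared windows of 100 bases are from GENCODE vM21 (mm10), and promoters from RefSeq (GRCm38.p6), which gave windows for 12 of the 14 tested members. The alternatives were another pseudocount (0.1), no minimum or 5 FPKM, no trend, median-ratio scaling, quantile normalization, a fit of all 12 livers, a replicate block, Cyber-T and each library left out. Calculations were tested on simulated data with Python 3.11.15 and R.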

Additional observations from a re-analysis of the deposited data

Results flagged for a closer look

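The interaction of time and treatment for Slc22a7 on the log2 scale was 0.89 (SE 0.34, limma p = 0.0236, adjusted p = 0.676, permutation p = 0.06 with treatment exchanged within each time). Of all genes, 6.63% passed limma p under 0.05 for this interaction. Slc22a7 averaged 94.6 ± 19.4 FPKM in Vehicle ZT0, 89.7 ± 35.0 in Vehicle ZT12, 57.3 ± 7.23 in Libramed ZT0 and 98.2 ± 12.2 in Libramed ZT12 (SD, n = 3). It was marked by the test of the interaction itself and does not pass the adjustment over 9806 genes.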

How the results depend on the processing

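The 19 calls of members at p under 0.05 kept their direction in all 309 alternatives run; 250 kept p under 0.05, 59 did not, and 9 calls held it throughout. In vehicle mice, the count of members with adjusted p under 0.05 between the times went from 0 to 1 in a fit of all 12 livers and to 3 in the Cyber-T version. In Libramed mice it went from 2 to 1 in the fit of all 12 livers, where the treatment count at ZT0 (p under 0.05) also went from 2 to 1. Without a minimum FPKM, 34 members were tested and the counts at p under 0.05 became 2 for treatment at ZT12, 1 for treatment over both times and 2 for the interaction. With each library left out in turn, the counts at p under 0.05 (adjusted p under 0.05) ranged from 2 to 6 (0 to 1) for time in vehicle mice, 3 to 7 (2 to 4) in Libramed mice and 3 to 8 (2 to 6) over both. They ranged from 1 to 3 for treatment at ZT0, 0 to 2 at ZT12, 0 to 2 over both times and 0 to 3 for the interaction, with 0 at adjusted p under 0.05 in each. The cause of these changes was not tested. Shares over all genes are not given for the alternatives, so these counts cannot be set beside a background. Fits without 1 library leave 2 mice in its group. Replicate numbers recur in all groups. Deviations of same-numbered livers from their group means had correlations over genes of -0.279 to 0.341. Pairs with different numbers were not compared, so these values do not show whether same-numbered livers share more than a number. With the replicate block, 2, 4 and 6 members passed p under 0.05 for time in vehicle mice, in Libramed mice and over both, and 2, 1 and 0 for treatment at ZT0, at ZT12 and over both times; Slc22a4, Slc22a30 and Slc22a18 lost their calls, at p of 0.0573, 0.0602 and 0.0551. Median-ratio scaling and quantile normalization moved the median of all genes by less than 0.1 (log2). The table holds no counts, so the counting error of members near 1 FPKM is unknown.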
